A study of Homo sapiens with 48 samples.

Results

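Regulators of G protein signalling (RGS proteins) were followed in BEAS-2B cells, a human bronchial epithelial line immortalised with viral genes, after drugs that raise cyclic AMP. The members were 10 RGS genes taken by name from 19775 genes with a probe set of exactly 1 gene symbol: RGS2, RGS3, RGS4, RGS5 and RGS16 of the R4 subfamily, RGS10 and RGS12 of the R12 subfamily, and RGS17, RGS19 and RGS20 of the RZ subfamily. The labels give all cells one culture history, 3 days in a supplemented serum-free keratinocyte medium and 24 h in the same medium without supplements. They then received vehicle, GS-5759 at 10 nM, or indacaterol and GSK256066 together, each at 10 nM (called Ind/GSK). Indacaterol is a long-acting agonist of the β2-adrenoceptor and GSK256066 inhibits phosphodiesterase 4, the enzyme that breaks down cyclic AMP, while GS-5759 is known as a bifunctional ligand with both activities. RNA was taken at 1, 2, 6 and 18 h with 4 replicates per group, which gave 12 groups and 48 Affymetrix arrays. Whether a replicate was a culture of its own is not in the labels, and the spread behind each p-value, which may be technical, is that of these samples. BEAS-2B is 1 transformed line and stands in for airway epithelium only within that limit.

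Heterotrimeric G proteins signal while their alpha subunit holds GTP, and RGS proteins bind that subunit and speed GTP hydrolysis, which ends the signal. R4 proteins act on Gi and Gq alpha subunits, and RGS2 prefers Gq, which couples receptors for many bronchoconstrictors to phospholipase C and calcium release. In airway cells RGS2 is known as a cyclic AMP-inducible gene, and its protein dampens Gq signals.

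Promoters of RGS2 and RGS3, the tested members with the widest differences from vehicle upwards and downwards, are shown because the cyclic AMP response element, the DNA word read by the CREB transcription factor, is written TGACGTCA in full and TGACG as a half-site. RefSeq windows of 250 bases before annotated starts (GRCh38.p14) were matched for 9 of the 10 members, 23 windows in all, and RGS20 was not among them. Both strands were searched, so a half-site reads TGACG or CGTCA, and every full element also holds half-sites. The window of RGS2 on the plus strand (chr1:192808789-192809038) and that of the third of 5 RGS3 starts on the plus strand (chr9:113501257-113501506) follow, 5′ to 3′, with the half-site in capitals.
RGS2: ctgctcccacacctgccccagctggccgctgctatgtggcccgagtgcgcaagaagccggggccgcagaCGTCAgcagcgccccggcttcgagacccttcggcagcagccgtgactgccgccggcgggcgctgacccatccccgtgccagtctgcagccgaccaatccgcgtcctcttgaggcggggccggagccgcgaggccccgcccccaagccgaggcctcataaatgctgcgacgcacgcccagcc
RGS3: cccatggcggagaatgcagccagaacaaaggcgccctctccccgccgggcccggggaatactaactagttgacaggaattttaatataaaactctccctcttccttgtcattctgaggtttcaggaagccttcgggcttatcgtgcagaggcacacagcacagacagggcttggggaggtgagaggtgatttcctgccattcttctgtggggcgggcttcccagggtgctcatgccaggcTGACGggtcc
The RGS2 half-site begins 181 bases before the start, and the RGS3 half-site begins 10 bases before. The printed RGS3 window is the only one among the RGS3 starts that holds a half-site. The full element was in 0 of the 23 windows and the half-site was in 5 windows of 4 members, namely RGS2, RGS3, RGS4 and RGS12. Over 35116 windows of the same length in RefSeq, 1.65% held the full element and 21.2% a half-site. These matches describe letters, and which RGS3 start the cells use was not tested. RGS4 and RGS5 are direct neighbours on chromosome 1, RGS16 lies next to RGS8 and RGS2 next to RGS13, both further R4 genes, and RGS10 on chromosome 10 lies next to GRK5, a G protein-coupled receptor kinase.

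Levels were probe set intensities, the brightness of a set of probes to 1 transcript, compared as log2(intensity + 16) and only within a gene. Genes were tested when the mean lay above the 40th percentile of genes, an intensity of 154. That left 11865 genes and 7 of the 10 members. RGS4, RGS16 and RGS17 were dimmer and are described without a call, and "dim" below refers to them. A gene was called at a Benjamini-Hochberg adjusted p under 0.05 in limma, a linear model fitted over all 48 arrays. Array medians ran from 6.999 to 7.173 on the log2 scale.

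The 12 arrays of replicate 3, one in each group, stood apart. KRT14, a keratin of basal epithelial cells, lay between 186879 and 441003 on them and between 13.3 and 31.9 on the other 36 arrays. KRT5, its partner keratin, lay between 29513 and 36309 on them and between 108 and 277 elsewhere. KRT19 ranged from 2296 to 4520 against at most 118. S100A9, a calcium-binding protein gene picked after its values were seen, ranged from 60760 to 1388780 against 84.3 to 199. Of 11865 tested genes, 347 were higher on all 12 arrays of replicate 3 than on any other array and 314 were lower, while for the remaining replicate numbers at most 9 were higher and at most 7 lower. Of 8 epithelial markers 7 were on the array and 5 passed the filter, KRT14 only through replicate 3. The summed intensity of the 7 was 238843 to 491047 in replicate 3 and 8880 to 15138 in the others. KRT14 and KRT5 made up most of that gap, so the sum restates their values and is no separate result for the list. KRT18 read 6307 to 9218 in replicate 3 and 5313 to 9184 elsewhere. Within replicate 3, KRT14 was 186879 to 275450 with vehicle, 291026 to 441003 with Ind/GSK and 313385 to 385926 with GS-5759. The keratins KRT8 and KRT18 were bright on every array, with lowest intensities of 3112 and 5313. Vimentin, a mesenchymal filament gene that cultured epithelial lines often express, was at 9900 or more on every array. The 3 leukocyte markers on the array were all below the filter. Among them CD14 read 159 to 289 in replicate 3 and 33.5 to 173 elsewhere. Some other non-epithelial markers passed, namely endothelial PECAM1 (mean intensity 520) and mesenchymal COL1A1 (9035). The smooth muscle markers MYH11, ACTG2 and DES passed too (888, 376 and 190), while VWF, CDH5, COL1A2 and DCN did not. What these signals come from was not tested. The labels call the arrays of replicate 3 BEAS-2B like the rest, and whether these 12 of 48 arrays hold the same cells was not tested. Each group holds 1 array of replicate 3, and the main differences of members are given with and without it.

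RGS2 rose with both drugs, early and strongly. It was about 4-fold higher than vehicle at 1 h and 2 h, about 2-fold higher at 6 h, and its groups overlapped again at 18 h. At 1 h its intensity in replicates 1 to 4 was 2081, 1554, 1117 and 1720 with vehicle, 9593, 5708, 6703 and 5400 with Ind/GSK, and 9735, 5948, 7141 and 5518 with GS-5759. All 8 treated arrays lay above all 4 vehicle arrays, which was so for 0.927% of tested genes with Ind/GSK and 1.02% with GS-5759. In limma the log2 difference was 2.07 ± 0.28 (SE, n = 4 per group; 4.19-fold, 95% interval 2.82 to 6.23, adjusted p = 1.56e-05) with Ind/GSK. With GS-5759 it was 2.12 ± 0.28 (4.34-fold, adjusted p = 8.07e-06). In such bulk samples, more RNA per cell cannot be told apart from more cells that carry the RNA.

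At 2 h the vehicle arrays read 1261, 1260, 757 and 1082, the Ind/GSK arrays 7091, 3918, 4684 and 3611, and the GS-5759 arrays 7818, 4423, 4567 and 3824. The groups again did not overlap, as for 2.27% and 3.46% of tested genes. The log2 difference in limma was 2.11 ± 0.28 (4.31-fold, adjusted p = 3.05e-06) with Ind/GSK and 2.20 ± 0.28 (4.59-fold, adjusted p = 1.26e-06) with GS-5759. RGS2 was the only member called at 1 h and 2 h, where 2.47% and 4.51% of tested genes were called with Ind/GSK and 0.32% and 3.05% with GS-5759. By size it was the 6th of 57 genes that rose with Ind/GSK at 1 h and the 10th of 201 at 2 h, and with GS-5759 the 8th of 37 and the 9th of 234. Without replicate 3 these 4 differences were 1.90 to 2.07 and were still called, with adjusted p from 0.000105 to 0.00129 in limma.

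At 6 h the vehicle arrays read 1569, 1453, 938 and 1588, the Ind/GSK arrays 5098, 2244, 2977 and 2016, and the GS-5759 arrays 4512, 2387, 2109 and 2056. Every treated array was still above every vehicle array, which held for 2.38% of tested genes with Ind/GSK and 4.28% with GS-5759, but the treated arrays were spread more widely, with replicate 1 the highest in both. The log2 difference in limma was 1.08 ± 0.28 (2.11-fold, adjusted p = 0.0175) with Ind/GSK, called among 5.01% of genes. With GS-5759 it was 0.94 ± 0.28 (1.91-fold, adjusted p = 0.0781), not called in a comparison where 1.88% of genes were. With the replicate number as a block both were called (adjusted p = 1.77e-05 and 0.000211), where 22% and 12.9% of genes were. Without replicate 3 the differences were 0.88 and 0.86, not called without the block (adjusted p = 0.117 and 0.208) and called with it (0.00174 and 0.00293). The Ind/GSK call was also lost in limma without replicate 1 of Ind/GSK (0.80, adjusted p = 0.121), without replicate 3 of Ind/GSK (1.06, 0.0571), without replicate 3 of vehicle (0.90, 0.0759), without all arrays of replicate 2 (1.23, adjusted p = 0.10), and when only the groups compared entered the fit (0.191).

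At 18 h the vehicle arrays read 2134, 1944, 1116 and 1813, the Ind/GSK arrays 2717, 2299, 1841 and 2072, and the GS-5759 arrays 2734, 2142, 1534 and 1985. The groups overlapped, although each treated array was above the vehicle array of its own replicate number, in 8 of 8 pairs, as for 10.2% and 12.3% of tested genes. The log2 difference was 0.37 (95% interval -0.20 to 0.94) with Ind/GSK and 0.27 (-0.30 to 0.84) with GS-5759. Neither was called, with or without the block, in a comparison where 0.0506% and 0% of genes were called without it (313 genes had an unadjusted p under 0.05 with GS-5759). Without replicate 3 the differences were 0.26 and 0.21, again not called.

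**Figure D1:**
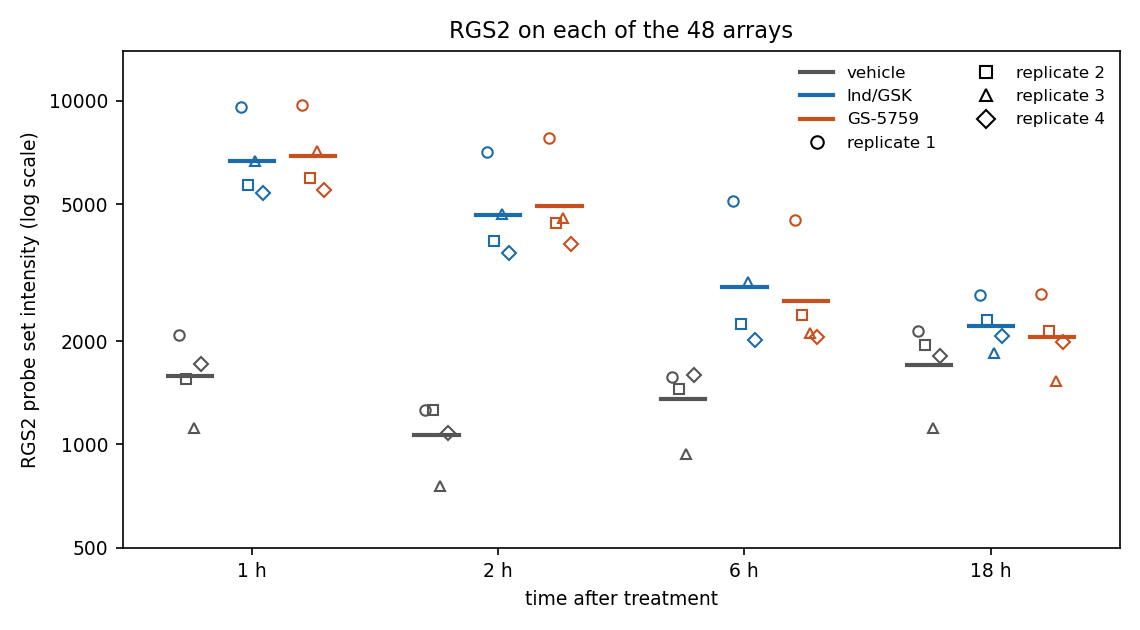
RGS2 probe set intensity on a log axis against time for all 48 arrays, with a symbol for each replicate number and a bar at the mean of each group's log2 values. The treated arrays lie above every vehicle array at 1, 2 and 6 h and overlap with vehicle at 18 h, and the triangles of replicate 3 are lowest among the vehicle arrays at each time.

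The decline of the response was measured within the same fit. The mean response of both drugs changed by 0.06 ± 0.35 (log2, SE) from 1 h to 2 h, by -1.15 ± 0.35 from 2 h to 6 h and by -0.69 ± 0.35 from 6 h to 18 h. None of these was called in limma (adjusted p = 0.141 for 2 h to 6 h), where 0.27%, 0.708% and 0.556% of genes were called. With the replicate block the falls from 2 h to 6 h (adjusted p = 0.000438) and from 6 h to 18 h (0.0379) were called, beside 6.66% and 7.45% of genes. The earlier call was kept without each replicate number in turn (-1.13, adjusted p = 0.00273 without replicate 3). The later one was lost without replicate 1 (-0.50, adjusted p = 0.295), replicate 2 (-0.76, 0.0929) or replicate 3 (-0.64, 0.111). Vehicle itself was lowest at 2 h: from 1 h to 2 h it changed by -0.56 ± 0.28, not called without the block (2.72% of genes were) and called with it (adjusted p = 0.0233, 17.9% of genes). RGS10 and RGS19 also changed with the block over that hour, by -0.19 (adjusted p = 0.0116) and -0.20 (0.0328), and the median of all tested genes was -0.06. After 75th percentile centring, which moved that median to 0.03, the block called none of these 3, and after quantile normalization only RGS10. Without replicate 1 none of them was called with the block, and without replicate 2 or 4 only RGS10 was. Without replicate 3 all 3 were, at -0.56, -0.21 and -0.22.

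The order of the 12 groups by mean intensity was vehicle at 2 h (1090 ± 237, SD, n = 4), 6 h (1387 ± 305), 1 h (1618 ± 400) and 18 h (1752 ± 444), then GS-5759 and Ind/GSK at 18 h (2099 ± 496 and 2232 ± 373), at 6 h (2766 ± 1173 and 3084 ± 1404), Ind/GSK and GS-5759 at 2 h (4826 ± 1576 and 5158 ± 1803), and the same at 1 h (6851 ± 1911 and 7086 ± 1895). Each neighbouring pair in that order differed by less than the larger SD of the pair, except Ind/GSK at 6 h against Ind/GSK at 2 h. Size varied with replicate number. At 6 h with Ind/GSK the log2 difference within replicates 1 to 4 was 1.69, 0.62, 1.65 and 0.34, and at 1 h it was 2.20, 1.87, 2.57 and 1.64.

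The compounds were compared with each other at the same dose and times. For RGS2, GS-5759 minus Ind/GSK was 0.05 (95% interval -0.52 to 0.62) at 1 h, 0.09 (-0.48 to 0.66) at 2 h, -0.14 (-0.71 to 0.43) at 6 h and -0.10 (-0.68 to 0.47) at 18 h on the log2 scale. The mean over the times was -0.03 (-0.31 to 0.26), and none of these 5 comparisons was called. Differences within these intervals are not excluded. Without replicate 3 the 5 values lay between -0.05 and 0.13, and none was called. At single times 0% of all tested genes were called between compounds, although 709, 194, 395 and 41 genes had an unadjusted p under 0.05, and over the mean 0.0759% were called. The comparisons of each compound with vehicle, given side by side, share the vehicle arrays.

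The genes whose 12 group means followed RGS2 most closely, by Pearson correlation across the 12 means, were PRDM1 (r = 0.988), a transcriptional repressor, NR4A2 (0.975), an orphan nuclear receptor, SGK1 (0.970), a kinase that controls ion transport, BCL6 (0.963), another repressor, and PIM1 (0.959), a kinase. These points share their arrays and vehicle groups, and the correlations carry no p. Without replicate 3 they were 0.988, 0.966, 0.964, 0.952 and 0.806, so that of PIM1 moved most. NR4A2 moved by 4.08 and 4.14 on the log2 scale with Ind/GSK at 1 h and 2 h, and PIM1 by 0.37 and 0.47.

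RGS3, an R4 protein with long and short isoforms that acts on Gi and Gq, was lower with both drugs in every replicate through 6 h. At 2 h its intensity in replicates 1 to 4 was 629, 482, 726 and 435 with vehicle, 447, 384, 422 and 303 with Ind/GSK, and 511, 411, 448 and 347 with GS-5759. Each treated array lay below the vehicle array of its own number, as for 23.8% and 17.1% of tested genes, but the groups overlapped. The log2 difference was -0.51 ± 0.22 (SE) with Ind/GSK and -0.38 ± 0.22 with GS-5759, not called in limma without the block (adjusted p = 0.220 and 0.512). With the block the SE was 0.07 and both were called (adjusted p = 8.17e-07 and 0.000154), in comparisons where 14.6% and 11.1% of genes were called.

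The same direction was seen at neighbouring times. RGS3 was -0.27 with Ind/GSK and -0.20 with GS-5759 at 1 h, and -0.30 and -0.15 at 6 h. With the block, Ind/GSK was called at 1 h (adjusted p = 0.00652, where 22.4% of genes were) and 6 h (0.00186) and GS-5759 at neither. All 4 pairs were lower in each of these 4 comparisons, which held for 37.9% and 31.1% of genes with Ind/GSK at 1 h and 6 h and for 13.4% and 18.5% with GS-5759. At 18 h the differences were -0.03 and 0.07, and the pairs pointed both ways. The 1 h call was lost when each array was centred on its 75th percentile, a shift that moved the median of all genes with Ind/GSK at 1 h from -0.11 to 0.01, while the 2 h and 6 h calls were kept. Without the block, that centring turned 57 risen and 236 fallen genes with Ind/GSK at 1 h into 102 and 14. After centring or quantile normalization the block also called RGS3 and RGS10 lower with GS-5759 at 6 h.

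Without replicate 3, which had the widest 2 h difference (-0.76 with Ind/GSK and -0.68 with GS-5759), the blocked RGS3 differences at 2 h were -0.43 (adjusted p = 0.000123) and -0.28 (0.0143), and at 1 h and 6 h with Ind/GSK -0.28 (0.0124) and -0.22 (0.0345). The 2 h and 6 h calls were kept without each replicate number in turn, while the 1 h call was lost without replicate 1 (-0.25, 0.0834) and without replicate 2 (-0.27, 0.0505). The blocked difference between compounds over the mean of the times, 0.11 (adjusted p = 0.0260 beside 19.7% of genes), was not called without replicate 1 or without replicate 3 (0.127). The other RGS3 probe sets were dim.

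**Figure D2:**
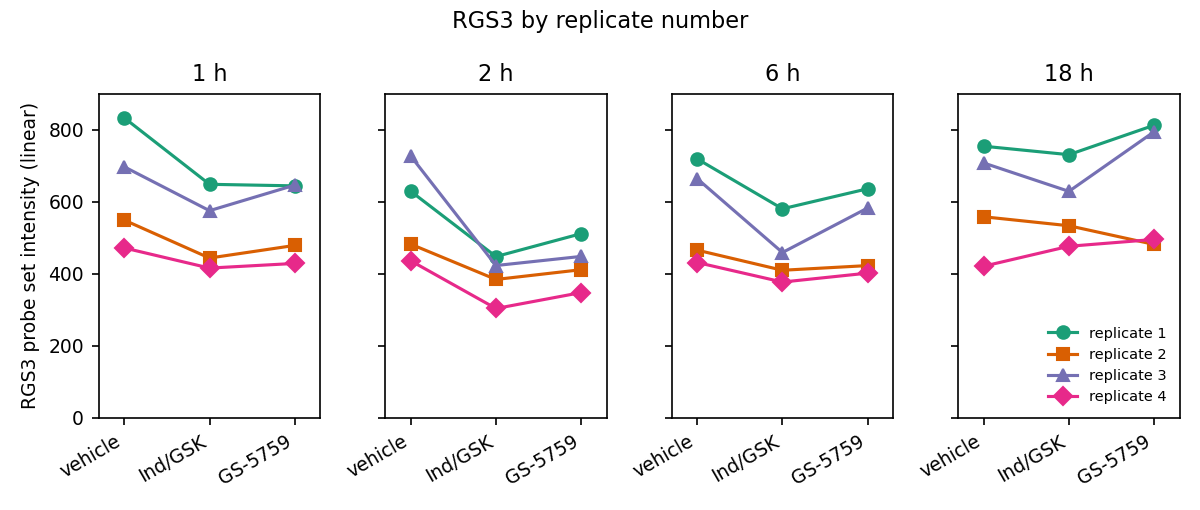
RGS3 probe set intensity on a linear axis at each time, with a line joining the vehicle, Ind/GSK and GS-5759 arrays of each replicate number. The lines fall from vehicle to both drugs at 1, 2 and 6 h, though the vehicle levels of replicates 1 and 3 stand apart from those of 2 and 4, and at 18 h the lines point both ways.

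RGS5, another R4 protein, known as a marker of pericytes, had no drug call without the block. At 1 h its arrays read 793, 742, 672 and 626 with vehicle and 697, 542, 541 and 548 with Ind/GSK. The difference of -0.28 ± 0.11 had an adjusted p of 0.163, and 0.0124 with the block, and that call was lost after 75th percentile centring. With the block it was called without replicate 3 (-0.27, adjusted p = 0.0479) and not without replicate 2 (-0.22, 0.166). Over all replicates the block called 22.4% of genes in that comparison, and the median of all tested genes was -0.11.

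RGS10, a small R12 protein that acts on Gi subunits, was -0.17 ± 0.08 with Ind/GSK at 6 h (adjusted p = 0.262, and 0.0136 with the block). Its arrays there read 1560, 1210, 1270 and 1399 with vehicle and 1305, 1105, 1142 and 1247 with Ind/GSK, lower in 4 of 4 pairs with groups that overlapped. All 4 pairs were lower for 31.1% of tested genes there, and 22% were called with the block. The blocked call was kept after both scalings and without replicate 3 (-0.18, adjusted p = 0.0345), and lost without replicate 1 (-0.15, 0.116) and without replicate 4 (-0.18, 0.0571). In vehicle, RGS10 at 18 h was 0.25 log2 units lower than at 1 h in 4 arrays each (-0.25 ± 0.08, adjusted p = 0.0602 in limma, where 5.72% of genes were called, and 0.000461 with the block, where 23.3% were). Without replicate 3 this change was -0.30 (blocked adjusted p = 0.000694).

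RGS12, a large R12 protein with scaffold domains, had arrays of 423, 250, 292 and 378 with vehicle at 6 h and of 414, 453, 460 and 379 with GS-5759. The difference of 0.36 ± 0.13 was not called (adjusted p = 0.200, and 0.0679 with the block). It was 0.26 without replicate 3 and 0.20 without replicate 2, not called in either fit, and 0.47 without replicate 4, called with the block (adjusted p = 0.0334). Another of the 10 RGS12 probe sets moved the other way with Ind/GSK at 6 h (-0.35 ± 0.11, adjusted p = 0.0851 and 0.00358 with the block in the fit over all probe sets). The main one was at 0.18 ± 0.13 there and not called in either fit, so these probe sets differed in direction. The remaining ones are not described here.

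RGS19 and RGS20, RZ proteins that act on Gi and Gz, had no call against vehicle in either fit. The RGS20 arrays at 18 h read 371, 374, 302 and 330 with vehicle, 274, 374, 201 and 322 with Ind/GSK, and 330, 321, 246 and 314 with GS-5759. The differences were -0.25 and -0.18, with adjusted p of 0.0951 and 0.581 with the block, and -0.15 and -0.15 without replicate 3. Between compounds over the mean of the times, the block called RGS3, RGS10 and RGS19 higher with GS-5759 by 0.11, 0.07 and 0.10. The median of all tested genes in that comparison was 0.06. None of these members was called after 75th percentile centring, after quantile normalization, without replicate 1 or without replicate 3. The mean 75th percentile was 557 on Ind/GSK arrays, 578 on vehicle arrays and 585 on GS-5759 arrays.

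**Figure D3:**
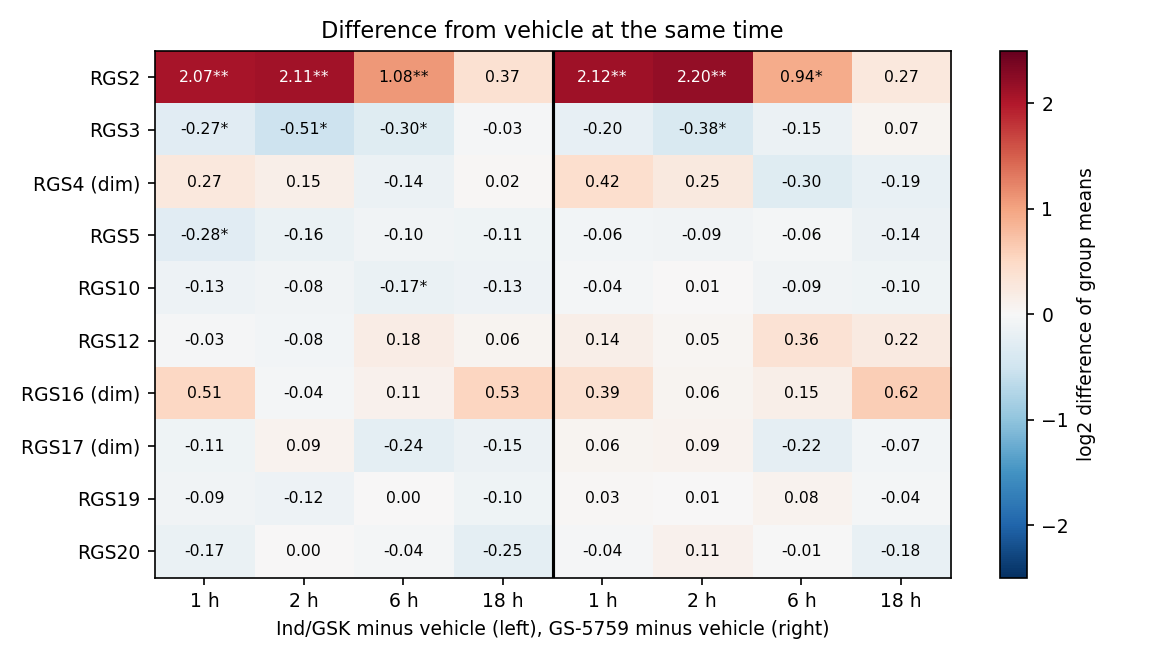
Log2 difference of group means from vehicle for the 10 members at each time, Ind/GSK on the left and GS-5759 on the right. A double asterisk marks an adjusted p under 0.05 in limma without a block, a single asterisk a call only with the replicate block, and dim members carry no marks because they were not tested. RGS2 holds all the values above 0.7 and RGS3 is the lowest with both drugs at 2 h.

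The dim members changed less clearly. RGS4, known in brain and muscle, was 0.42 with GS-5759 at 1 h and -0.30 at 6 h in a fit without the filter (blocked adjusted p = 0.0842 and 0.118), and 0.38 and -0.39 without replicate 3. RGS16, an R4 gene inducible in immune cells, read 45.2, 43.2, 50.8 and 62.8 with vehicle at 18 h and 88.5, 77.7, 83.3 and 94.6 with GS-5759, groups that did not overlap, as for 1.45% of tested genes. Its difference of 0.62 ± 0.20 had an adjusted p of 0.771 in that fit and 0.303 with the block, and with Ind/GSK it was 0.53, where the groups overlapped. Without replicate 3 these were 0.64 and 0.46, not called in either fit. RGS17, known for Gz and Gi, was -0.24 with Ind/GSK at 6 h (blocked adjusted p = 0.0461 in the fit without the filter) and -0.22 with GS-5759 (0.0850). As a dim member it is not counted as a call. In the filtered fit with the block, 22% of genes were called with Ind/GSK at 6 h. Without replicate 3 the blocked adjusted p for RGS17 was 0.361 with Ind/GSK and 0.496 with GS-5759.

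Several members differed more between replicate numbers than between the 12 groups of treatment and time. The spread of log2 values over the 48 arrays was split into shares between the 12 groups, between the 4 replicate numbers and the rest. Replicate number held 93.3% of the spread of RGS17 and 84.4% of that of RGS19, against 9.38% for RGS2, of which the groups held 85.4%. Over all tested genes the median share was 25.2% for replicate number and 37.5% for groups. For RGS17, 98.7% of tested genes had a smaller replicate share.

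RGS17 was highest in replicate 3 in 12 of 12 groups, at 231 to 340, against 107 to 209 in replicate 1, 65.8 to 99.4 in replicate 2 and 69.7 to 94.4 in replicate 4. RGS19 was lowest in replicate 3 in 12 of 12 groups, at 454 to 682, against 658 to 871, 757 to 1090 and 888 to 1126 in replicates 1, 2 and 4. RGS4 was highest in replicate 3 in 11 of 12 groups. The replicate 3 arrays are those on which KRT14 and KRT5 were high. RGS3 was highest in replicate 1 in 10 groups and lowest in replicate 4 in 11. Without replicate 3 the replicate share was still 80.9% for RGS17 and 70.3% for RGS19, and the median over tested genes was 12.4%.

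**Figure D4:**
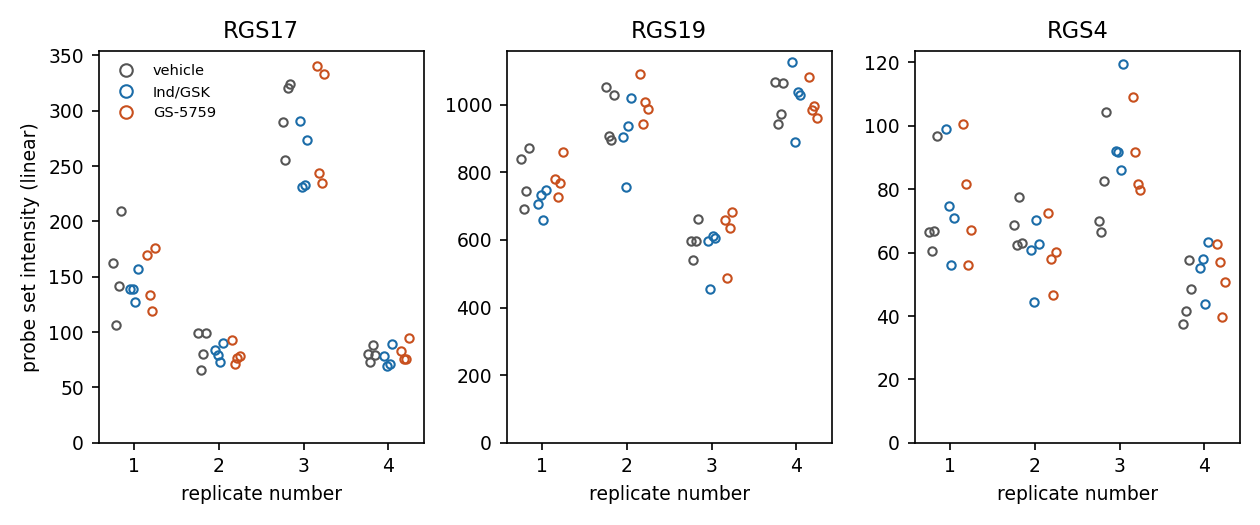
Probe set intensity on linear axes from 0 for RGS17, RGS19 and RGS4 by replicate number, 1 point per array, coloured by treatment, with time running left to right within each colour. RGS17 stands highest and RGS19 lowest in replicate 3 in all 3 treatments, and in RGS17 replicate 1 lies between.

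**Figure D5:**
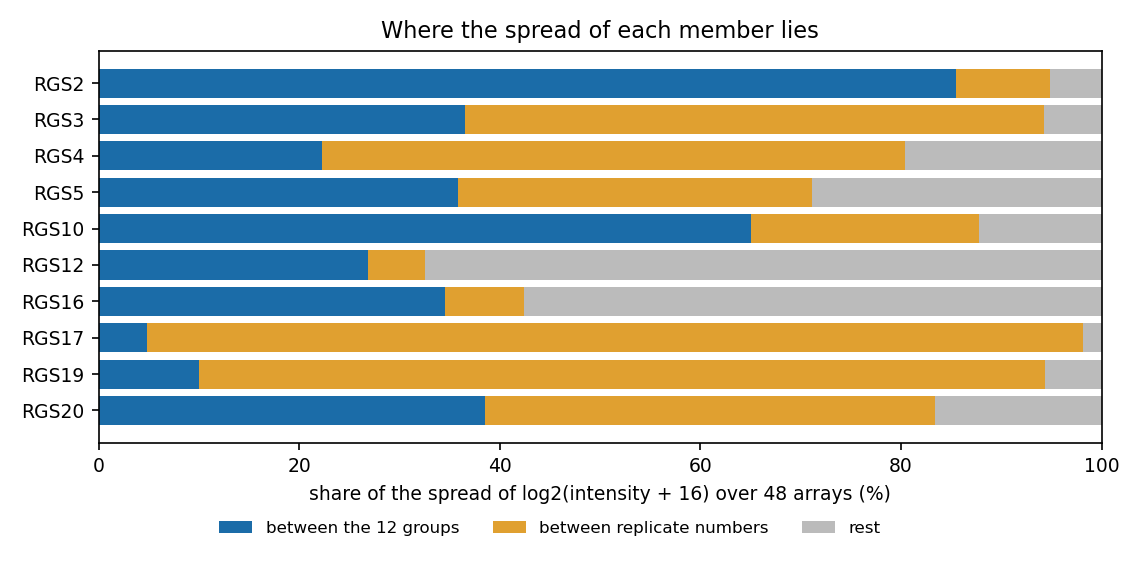
Share of each member's spread over 48 arrays that lies between the 12 groups, between the 4 replicate numbers and in the rest, as stacked bars from 0 to 100%. The groups hold 85.4% for RGS2, and replicate number holds 93.3% for RGS17 and 84.4% for RGS19.

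The proteins around the RGS members were counted from lists of the G protein pathway. Of 65 tested genes in 10 lists, 18 comparisons with vehicle passed limma and came from 9 genes. That was 3.46% of 520 tests of a gene in a comparison, beside 2.16% over all tested genes in the same 8 comparisons. The effectors of Gq and calcium release held 9 of the 18, from 4 of their 10 tested genes and 80 tests. Of the 18 calls, 13 were kept after 75th percentile centring, 12 after quantile normalization, and 5, 4, 8 and 7 without replicate 1, 2, 3 and 4 in turn. ITPR1, the receptor that releases calcium in answer to IP3, read 339, 329, 370 and 222 with vehicle at 6 h, 579, 519, 774 and 490 with Ind/GSK, and 639, 550, 714 and 482 with GS-5759. It rose by 0.88 ± 0.13 (adjusted p = 2.01e-05) and 0.90 ± 0.13 (2.17e-05) in limma. Without replicate 3 the rises were 0.82 and 0.89, and both were called without each replicate number in turn.

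Of the protein kinases C, which act downstream of phospholipase C, PRKCE rose at 2 h by 0.58 with Ind/GSK and 0.64 with GS-5759 (adjusted p = 0.0214 and 0.0117 in limma), and PRKCA rose at 6 h by 0.47 and 0.47 (0.0202 and 0.0400). Without the block, PRKCE was not called at 6 h, nor PRKCA at 2 h. PRKCA read 2328 in replicate 3 with Ind/GSK against 1265 to 1456 in the others, and without replicate 3 its rises were 0.26 (adjusted p = 0.0851) and 0.33 (0.0478), while those of PRKCE were 0.62 and 0.68, still called. Without the block, none of these 4 rises was called when replicate 1 or replicate 2 was left out. With the block PRKCE was also called at 6 h, at 0.28 with Ind/GSK and 0.32 with GS-5759 (adjusted p = 0.00882 and 0.00410). In those comparisons the block called 22% and 12.9% of genes. PLCB3, a phospholipase C that Gq activates, fell at 1 h and 6 h with Ind/GSK by 0.24 and 0.33 on the log2 scale. At 6 h with GS-5759 it fell by 0.27 (adjusted p from 0.00244 to 0.0453 for the 3 falls, in limma without the block). The 1 h call was lost after both scalings (-0.12 after either). Without replicate 1 or replicate 2 none of the 3 was called. Over all 10 tested effectors the median difference at 6 h was 0.06 with Ind/GSK and 0.14 with GS-5759, beside -0.05 and 0.00 for all genes.

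Among the subunits, GNAI3, a Gi alpha subunit, fell with Ind/GSK at 2 h by 0.15 and at 6 h by 0.18 on the log2 scale in limma. At 6 h it read 6330, 6177, 6242 and 6313 with vehicle and 5295, 5731, 5292 and 5850 with Ind/GSK. It was lower in all 4 pairs, as for 31.1% of tested genes. The 6 h call was lost without replicate 1 (-0.15, adjusted p = 0.0844 in limma) and kept without replicate 2, 3 or 4. With GS-5759 at 6 h GNAI3 was -0.11, not called in limma without the block (adjusted p = 0.109) and called with it (0.0220). Without the block that value was called after 75th percentile centring (0.0395) and not after quantile normalization (0.146). GNG11 rose at 6 h with both drugs by 0.30 and 0.32, and GNG5 fell with Ind/GSK at 2 h and 6 h and with GS-5759 at 6 h, by 0.12 to 0.14. Both Ind/GSK calls of GNG5 were lost after 75th percentile centring (adjusted p = 0.0639 and 0.108), and all 3 after quantile normalization, where the 2 h value was -0.06. GNAI3 at 2 h was also lost after both scalings. GNB1 fell with Ind/GSK at 1 h by 0.16, and was -0.04 after centring and -0.09 after quantile normalization, not called. GNG11 was not called at 6 h without replicate 2, 3 or 4. Of 12 tested receptors only LPAR1, a receptor for lysophosphatidic acid, passed limma without the block, rising by 0.37 with Ind/GSK at 6 h. With GS-5759 at 6 h it was 0.35, not called without the block (adjusted p = 0.0999) and called with it (0.00978). The Ind/GSK rise was 0.25 without replicate 3, called neither without the block (adjusted p = 0.169) nor with it (0.0859). In the fit without the block it was not called without replicate 1, 2 or 4 either. With the block, 15 of the 18 calls remained without replicate 3.

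Other RGS genes and regulators were counted in the same way. No gene of the R7 subfamily, of the RGS-like proteins, of the GoLoco regulators or of the receptor kinases and arrestins passed limma without the block. In that fit only 2.16% of tests over all genes passed. With the block, 3 of 24 tests (12.5%) passed in the R7 list and 5 of 40 (12.5%) among GoLoco regulators, beside 10.9% of all tests. Among RGS-like proteins 2 of 72 (2.78%) passed, and among receptor kinases and arrestins 1 of 32 (3.12%). Whether any list differed from all genes was not tested. RGS7, an R7 protein best known in neurons, was -0.62 with Ind/GSK and -0.60 with GS-5759 at 6 h, called only with the block (adjusted p = 1.89e-06 and 4.40e-06, and 0.000540 and 0.000958 without replicate 3), in comparisons where 22% and 12.9% of genes were. RGS11, of the same subfamily, was -0.47 with GS-5759 at 6 h (blocked adjusted p = 0.0186), and not called without replicate 3 (0.123). PLCE1, a phospholipase C counted among the GoLoco and receptor-independent regulators, was -0.72 with Ind/GSK and -0.58 with GS-5759 at 6 h (blocked adjusted p = 6.56e-05 and 0.00152).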

How the data were processed

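RNA of 48 BEAS-2B samples was measured on Affymetrix U133 Plus 2.0 arrays. The submitters' processing notes name PLIER and Affymetrix Expression Console, with which the authors made the deposited linear probe set intensities. Versions and the normalization between arrays were not given in the sources used here, and the number of arrays limits the precision. Values were used as deposited, as log2(intensity + 16). The brightest probe set with 1 symbol stood for each gene, and genes above the 40th percentile were tested with limma 3.58.1 in R 4.3.3 over all 48 arrays, adjusted by Benjamini-Hochberg in each comparison. The code was tested on simulated data. Figures were drawn with Python 3.11.15 and matplotlib 3.10.9.

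The members and lists were chosen with earlier results of these data known. The genes named were all 10 members, the called genes of the lists, and the 5 genes closest to RGS2. RGS7, RGS11 and PLCE1, called only with the block, were added after their values were seen. Deviations of same-numbered samples of compared groups correlated at 0.218 to 0.946. Differently numbered samples reached 0.796. These ranges, pooled over all comparisons, overlap and do not by themselves show that the numbers pair the samples. The titles' replicate numbers were taken as pairs for the block. Blocked values are given where they change a call of a member, and for some of the list genes. Without replicate 3, same-numbered samples correlated at 0.176 to 0.884 for drug against vehicle, and differently numbered ones reached 0.445. Leaving out replicate 3 was chosen as a comparison after its keratin values were seen. Alternatives covered pseudocount, filter, scaling, samples in the fit, replicate block, other probe sets and omitted replicates.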

Additional observations from a re-analysis of the deposited data

Results flagged for a closer look

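Among 120 groups of 4 arrays, 8 held an array far from the other 3 by Dixon's criterion, and chance flags about 1 in 20 groups. RGS2 in vehicle at 6 h was 938 in replicate 3 against 1453 to 1588 in the others. RGS4 in vehicle at 1 h was 37.4 in replicate 4 against 66.4 to 70.1. RGS5 was 697 in replicate 1 with Ind/GSK at 1 h against 541 to 548, 794 in replicate 1 with GS-5759 at 1 h against 631 to 644, and 516 in replicate 4 with Ind/GSK at 18 h against 576 to 579. RGS10 was 1940 in replicate 1 of vehicle at 1 h against 1558 to 1594, and 1124 in replicate 3 with Ind/GSK at 18 h against 1312 to 1323. RGS20 was 246 in replicate 3 with GS-5759 at 18 h against 314 to 330.

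RGS4 was higher with GS-5759 in all 4 replicates at 1 h (0.42) and lower in all 4 at 6 h (-0.30), a gap of 0.72 on the log2 scale. RGS20 was higher in all 4 at 2 h (0.11) and lower in all 4 at 18 h (-0.18), a gap of 0.29. Neither difference was tested.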

How the results depend on the processing

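The RGS2 rises at 1 h and 2 h with both drugs kept their direction and their call under every alternative run. Calls of members against vehicle numbered 5, and 12 with the replicate block, alone or with 75th percentile centring or quantile normalization. These were not the same calls: either scaling lost RGS3 and RGS5 with Ind/GSK at 1 h and gained RGS3 and RGS10 with GS-5759 at 6 h. Over all tested genes in the same 8 comparisons, 2.16% of tests were called without the block and 10.9% with the block alone. The members' other probe sets, of which RGS2 has none, gave 0. Leaving out replicates gave 4 to 5 without the block and 10 to 13 with it. Calls between compounds numbered 0, 3 with the block, and 0 to 4 with it when a replicate number was left out. The 3, all over the mean of the times, stood beside 19.7% of genes. Calls on the response between times numbered 0, 2 with the block, 5 with the block and either scaling, and 0 to 2 without a replicate. The 2, both of RGS2, stood beside 6.66% and 7.45% of genes. Calls between vehicle times numbered 0, and 1 above the 60th percentile, after quantile normalization or with other probe sets. They numbered 7 with the block, 4 with the block and centring, 5 with the block and quantile normalization, and 0 to 8 without a replicate. Over all tested genes the block called 17.9% from 1 h to 2 h and 23.3% from 1 h to 18 h in vehicle. From 6 h to 18 h it called 2768 genes risen and 1301 fallen. Calls in the lists numbered 18, 11 above the 60th percentile, 0 when only the groups compared were fitted, and 4 to 19 without a replicate. With the block they numbered 58, which was 11.2% of tests beside 10.9% over all genes. They were 57 and 53 with the block and centring or quantile normalization. With the block they were 30, 33, 31 and 58 without replicate 1, 2, 3 and 4 in turn.

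RGS2 with Ind/GSK at 6 h stayed at 1.08 with only the groups compared (adjusted p = 0.191 in limma) and without a replicate it was 0.80 to 1.32, called or not. With GS-5759 at 6 h it was called with the replicate block at 0.94, with block and centring at 0.90, with block and quantile normalization at 0.91, and with the block at 0.74, 1.01, 0.86 and 1.13 without replicate 1, 2, 3 and 4 in turn. Of 2104 refits of single values 200 differed in sign, all of them uncalled values, and 67 changed a call. The causes were not tested. The filter leaves RGS4, RGS16 and RGS17 without a call, and their low signal limits what can be seen.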
